A study of Mus musculus with 4 samples.

Results

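Immediate early AP-1 genes were followed across the cell classes of dissociated mouse digits labelled P3, the last phalanx with its nail and skin. The digits had been severed at the base of P2, the middle phalanx, so P2 and its joint with P3 were in the tissue too. The genes were chosen by symbol, and all 10 were found among the 33696 genes of each library: Fos, Fosb, Fosl1 and Fosl2 of the FOS family, Jun, Junb and Jund of the JUN family, the related factor Atf3, the zinc finger factor Egr1 and the nuclear protein gene Ier2. Single-cell RNA-Seq had been made from hindlimb digits 2 to 4 of female C57BL/6 mice (C57BL/6J in the study's methods) aged 6 to 8 weeks, with 10 mice pooled into each library. Of the 4 libraries, SAR131675 came from mice fed chow with 30 mg/kg of SAR131675, an inhibitor of the lymphatic growth factor receptor VEGFR3, for 8 days, and control diet from mice on matched chow without it. The 8 days are those of the labels. The study's methods have the chow begin before amputation and continue to the end, so its full length may differ. The LNR library came from limbs after surgical lymph node removal, and LNR control from the sham side, which the study describes as the opposite limb. The study's methods describe amputation of the P3 tip on digits 2 and 4, so the pools of digits 2 to 4 may also hold uninjured digits. The labels give no day of harvest, and for the diet pair the study's text and a legend name different days after amputation. All tissue was digested with collagenases and dispase for 45 minutes at 37 °C before capture, so every level below was read after that step, and no undigested tissue was analysed here.

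Immediate early genes are switched on within minutes of a growth signal, injury or stress, from factors already present in the cell and without new protein synthesis. FOS proteins pair with JUN proteins through leucine zippers to form AP-1, which binds DNA and changes the transcription of later genes, among them wound keratins and matrix proteases. In skin these genes are known to respond to wounding and also to enzymatic dissociation itself. Both sources give the same transcripts, and in these data they cannot be told apart.

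After keeping barcodes with 200 to 5500 genes, at most 30000 UMIs (unique molecules counted) and at most 10% mitochondrial UMIs, 29076 SAR131675, 24030 control diet, 19827 LNR and 20669 LNR control cells remained. Median UMIs per kept cell were 11316 and 10712 in the diet pair, and 5725 and 5851 in the LNR pair. The pairs also differed in the software version that made the counts, and each library had a batch number of its own in the labels. Levels are therefore compared within a pair, those of the 2 pairs are given side by side, and within a pair the batch and the group cannot be told apart. The SAR131675 and control diet libraries shared 348 barcodes, 210 of them kept in both. LNR and LNR control shared 130 barcodes, 101 of them kept in both, and the other combinations of libraries shared at most 3. With 1 library per group there was no replicate check and no test. The 95% intervals (exact Poisson for levels, exact conditional for ratios, Clopper-Pearson for shares) cover counting error only, not the spread between mice or preparations. Cells were clustered within each pair without the 10 genes, and clusters were named after marker lists as "-like" classes, 19 in the diet pair and 21 in the LNR pair with at least 50 cells in each library. Orders of levels are over the named classes unless a cluster is given by number. A level is given in CPM, the gene's UMIs over all UMIs of the class in that library, scaled to a total of 1000000.

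Promoter sequences were shown for the 4 of the 7 members with an entry that held the core letters of a cyclic AMP response element, TGACG, because CREB and ATF proteins, known inducers of Fos, bind these letters. They are RefSeq sequences of mouse build GRCm38.p6, an earlier build than the GRCm39 of the count files, and each is the 140 bases before the annotated start, printed 5′ to 3′ on the gene's strand with TGACG (or CGTCA, the same letters on the other strand) in capitals. Fos lies at chr12:85473750-85473889 on the + strand, Fosb at chr7:19310046-19310185 on the - strand, Junb at chr8:84978749-84978888 on the - strand and Atf3 at chr1:191183334-191183473 on the - strand.
Fos: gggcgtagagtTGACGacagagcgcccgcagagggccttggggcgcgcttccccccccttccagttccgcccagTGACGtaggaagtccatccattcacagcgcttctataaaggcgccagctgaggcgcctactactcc
Fosb: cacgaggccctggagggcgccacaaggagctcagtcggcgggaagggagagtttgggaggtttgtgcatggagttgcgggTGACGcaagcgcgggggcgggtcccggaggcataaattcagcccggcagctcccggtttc
Junb: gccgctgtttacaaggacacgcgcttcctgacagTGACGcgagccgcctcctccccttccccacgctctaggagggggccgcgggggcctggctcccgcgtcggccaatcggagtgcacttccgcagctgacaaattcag
Atf3: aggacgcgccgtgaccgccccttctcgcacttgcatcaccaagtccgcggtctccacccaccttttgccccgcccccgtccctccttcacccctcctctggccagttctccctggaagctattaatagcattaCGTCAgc
Within the window of 250 bases before to 50 after the start, Fos held these letters at -129 and -66, Fosb at -60, Junb at -106 and Atf3 at -7 (bases from the start). Over all 27025 windows of the same length, 21.0% held TGACG on either strand. The full element TGACGTCA (1.88% of windows), the AP-1 site TGANTCA (7.93%) and the CArG box (1.57%) were in none of the 7. TATAAA (14.2% of windows) was in Fos and Junb, GGGCGG (35.9%) in 5 members, CCAAT (37.9%) in 3, and the EGR site GCGNGGGCG (5.55%) in Fosb and Fosl2, where it overlapped GGGCGG. These are letter matches in short windows. Fosl1, Egr1 and Ier2 had no entry.

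Fos encodes the best known partner of the JUN proteins. Its level over all kept cells was 641 CPM in SAR131675 and 652 in control diet, and 1333 in LNR and 1158 in LNR control. By class it was highest in Schwann-like cells of the diet pair, at 2508 in SAR131675 and 2853 in control diet, with mural-like cells next at 2619 and 2284. These 2 classes did not differ beyond the spread between their libraries, and Langerhans-like cells (1772 and 1749) and blood endothelial-like cells (1699 and 1766) formed the next pair that overlapped. In the LNR pair mast-like cells led at 4914 and 5004, and Schwann-like cells followed at 2954 and 3257, with no overlap between them. Tenocyte-, macrophage-, LEC- (lymphatic endothelial), mural- and osteoblast-like cells could not be ordered there. Keratinocyte classes were at the lower end in both pairs, for example suprabasal keratinocyte-like cells at 333, 368, 499 and 445 in SAR131675, control diet, LNR and LNR control. Of the 18 neighbouring steps in the order of the diet pair 11 did not overlap, as did 10 of 20 in the LNR pair.

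**Figure D1:**
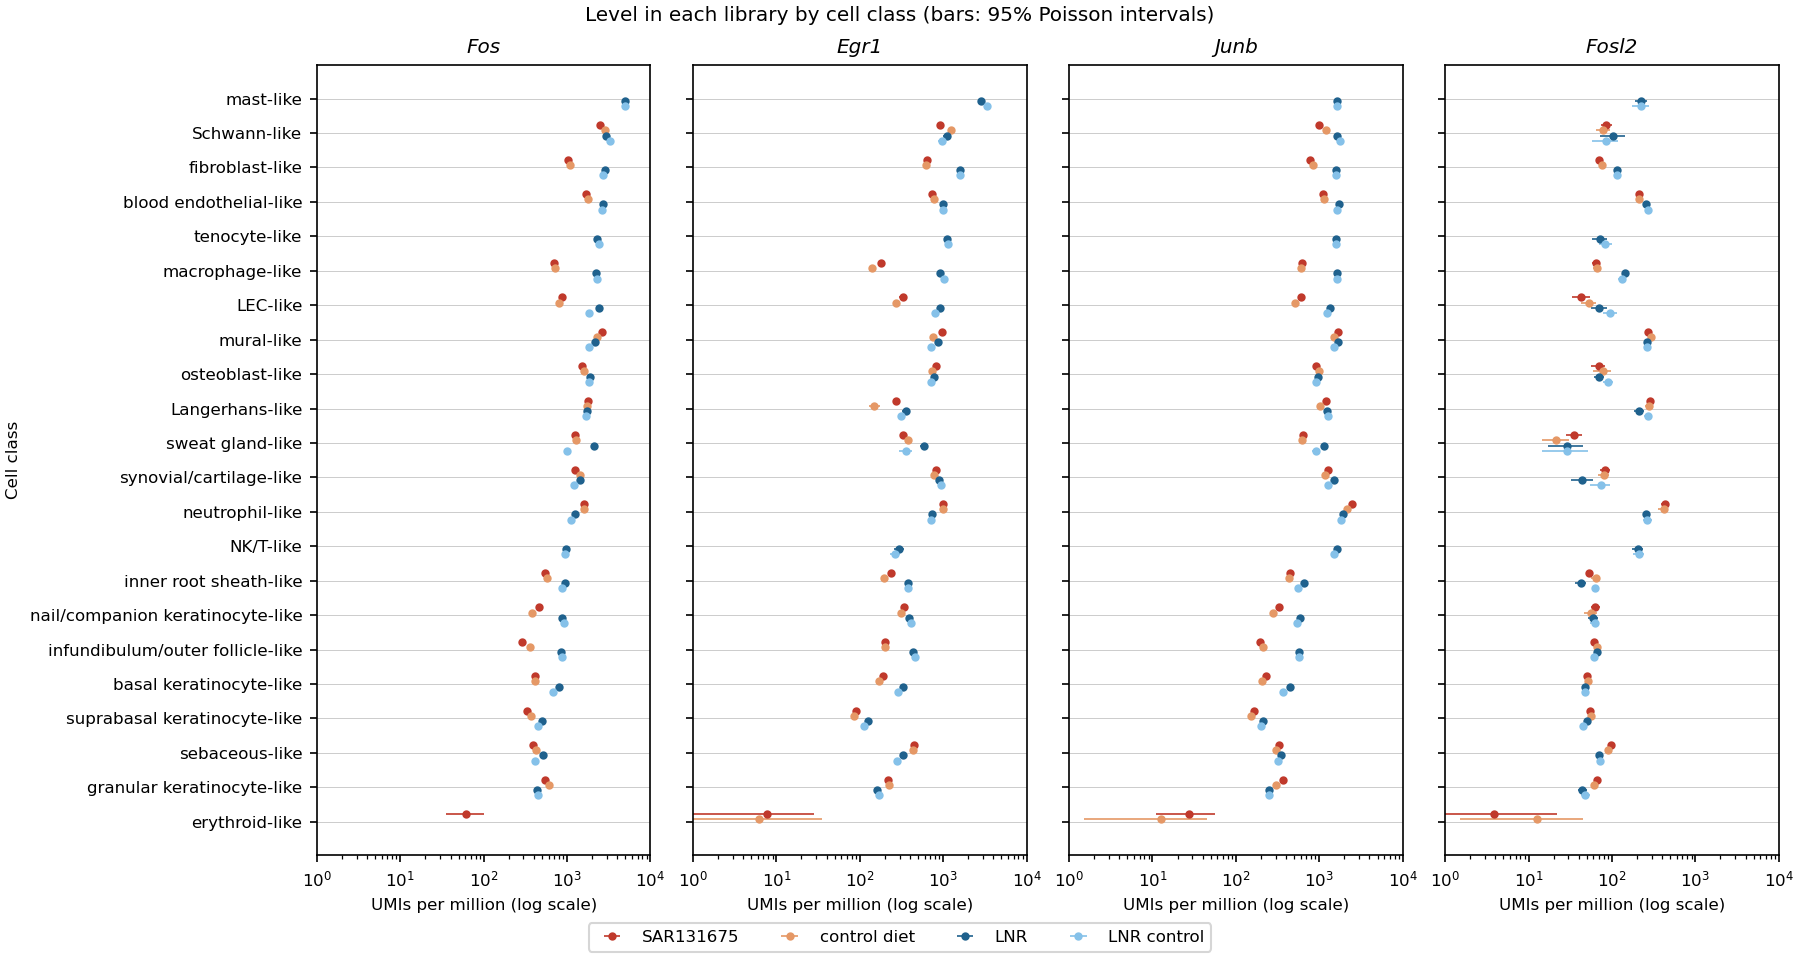
Level of Fos, Egr1, Junb and Fosl2 (CPM, log scale) in each library by cell class, with 95% Poisson intervals as bars. Mast-like cells, a class reported only in the LNR pair, were highest for Fos at 4914 and 5004, and erythroid-like cells were low throughout. A level of 0 (Fos in control diet erythroid-like cells) is not drawn.

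Erythroid-like cells of the diet pair were read as a low reference, and the other classes are called nucleated below. Whether the erythroid-like cells had lost their nuclei was not tested. Fos stood at 62.2 CPM there in SAR131675 (16 UMIs in 92 cells). It had 0 UMIs in the 55 cells of control diet, where 3 UMIs would be a level of 18.8. To compare shares of cells at equal depth, each cell was thinned to 1500 UMIs, and shallower cells were left out. The share of cells with a Fos UMI was then 33.5% in SAR131675, 34.1% in control diet, 56.8% in LNR and 54.0% in LNR control, on 27824, 22287, 18468 and 19194 cells. Without thinning it was 57.4%, 55.1%, 71.8% and 69.4%. In the erythroid-like cells of SAR131675 it was 6.49% (2.14 to 14.5%, 77 cells, median 2914 UMIs per cell before thinning), below the 47.8% of fibroblast-like cells (median 10451 UMIs) of the same library. Nearly every mast-like cell held a Fos UMI, 95.9% of 122 cells in LNR and 97.1% of 70 in LNR control. Their median depth there was 1648 and 1336 UMIs before thinning. By this share mural-like cells stood above Schwann-like cells in the diet pair. In SAR131675, 461 mural-like cells held a Fos UMI and 158 did not, against 194 and 108 Schwann-like cells. In control diet the difference was smaller, at 304 and 115 against 137 and 60.

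Fosb, which like Fos carries a transactivation domain, had a different leading class in the diet pair. Langerhans-like cells, the antigen-presenting cells of the epidermis, held 938 and 1088 CPM against 589 and 615 in mural-like cells, the next class. In the LNR pair they held 859 and 1069, and mast-like cells 1608 and 1658. Over all kept cells Fosb was at 121 in SAR131675, 142 in control diet, 346 in LNR and 319 in LNR control.

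Fosl1 encodes a FOS protein without that domain, known from migrating keratinocytes and tumour cells, and it was the sparsest of the 10. Its level over all kept cells was 13.6 and 18.1 CPM in the diet pair and 9.03 and 7.68 in the LNR pair. Only 1.70%, 2.22%, 0.980% and 1.05% of thinned cells held a UMI. Neutrophil-like cells held the highest level, 42.9 in SAR131675 and 112 in control diet on 39 and 55 UMIs, and 43.8 and 38.3 in the LNR pair. Among keratinocyte classes of the diet pair, nail and companion keratinocyte-like cells (25.3 and 28.5) and inner root sheath-like cells (20.8 and 30.5) stood above suprabasal keratinocyte-like cells (13.6 and 17.3).

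Fosl2, the other FOS gene without the transactivation domain of Fos, was also highest in neutrophil-like cells of the diet pair, at 433 in SAR131675 and 415 in control diet. In the LNR pair mural-like cells (266 and 263) and neutrophil-like cells (259 and 265) were level. Sweat gland-like cells were lowest of the nucleated classes at 35.2 and 21.3 in the diet pair and 28.8 and 29.0 in the LNR pair. Over all kept cells Fosl2 was at 70.5 in both diet libraries, 83.7 in LNR and 81.0 in LNR control.

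Jun, the founding member of the JUN family, peaked in blood endothelial-like cells of the diet pair at 1059 in SAR131675 and 1195 in control diet. In the LNR pair blood endothelial-like cells held 1156 and 1159, below mast-like cells at 2358 and 2494. Suprabasal keratinocyte-like cells (146, 171, 189 and 194) were low in all 4 libraries, and granular keratinocyte-like cells held 117 in both LNR libraries. Sebaceous-like cells held 775 and 778 in the diet pair, where their Fos was only 395 and 423.

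Junb, a JUN protein known to act in differentiating keratinocytes and in myeloid cells, was highest in neutrophil-like cells of every library: 2491, 2129, 1935 and 1808 CPM in SAR131675, control diet, LNR and LNR control. That order is among named classes, since unnamed cluster 28 of the LNR pair held 3724 and 2387. By share of thinned cells with a Junb UMI, neutrophil-like cells were not first in the LNR pair. They reached 81.5% in LNR and 72.2% in LNR control, and synovial and cartilage-like cells 88.05% and 75%, with overlapping 95% intervals. In LNR control mast-like (78.6%) and mural-like cells (77.6%) stood above both. Mural-like cells followed in the diet pair at 1690 and 1490. The lowest nucleated class was suprabasal keratinocyte-like in all 4, at 163, 153, 211 and 200. The difference between these ends was 14.6-fold in the diet pair and 9.11-fold in the LNR pair, as a ratio of mean levels.

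Jund, the JUN gene known for steady expression, was, with Ier2, the most even of the 10. Its highest and lowest nucleated classes differed 2.88-fold in the diet pair (synovial and cartilage-like at 1090 and 1227, sebaceous-like at 393 and 410) and 4.88-fold in the LNR pair (tenocyte-like at 1362 and 1515, suprabasal keratinocyte-like at 287 and 303). Even erythroid-like cells held 218 and 300, and 22.1% (13.4 to 33.0%) of those in SAR131675 had a UMI after thinning, against 53.4% of all kept cells. For Fos the same ratio between nucleated classes was 8.24 and 11.2, and for Ier2 2.17 and 5.52.

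Atf3, a stress-induced partner of JUN proteins that often represses, was highest in mural-like cells, the pericytes and smooth muscle around vessels: 973 and 850 in the diet pair and 778 and 812 in the LNR pair, where sweat gland-, macrophage- and blood endothelial-like cells overlapped them. Mast-like cells, which led for Fos, Fosb, Jun, Egr1 and Ier2, held only 81.1 in LNR and 142 in LNR control on 50 and 44 UMIs. Granular keratinocyte-like cells had 79.3 and 81.9 in the diet pair and 51.2 and 45.3 in the LNR pair.

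Egr1, a factor induced through the serum response factor pathway, was highest in Schwann-like cells of the diet pair at 916 in SAR131675 and 1225 in control diet, and neutrophil-like cells (1002 and 995) overlapped them. By share of thinned cells with an Egr1 UMI, Schwann-like cells were not first in SAR131675. Among neutrophil-like cells there, 60.6% of those with a Fos UMI and 59.6% of those without held Egr1. In Schwann-like cells these shares were 58.8% and 5.56%, and in mural-like cells 67.0% and 34.8%. Mast-like cells of the LNR pair held 2880 and 3397, above fibroblast-like cells at 1590 and 1593. Suprabasal keratinocyte-like cells were the lowest nucleated class at 90.3, 85.4, 124 and 111.

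Ier2 varied least between nucleated classes of the diet pair, from 167 and 113 in Langerhans-like cells to 318 and 290 in blood endothelial-like cells. In the LNR pair mast-like cells held 911 and 1010 and unnamed cluster 28 held 955 and 788, against 402 and 387 in blood endothelial-like cells.

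Unnamed clusters with at least 50 cells in each library, 10 in the diet pair and 5 in the LNR pair, exceeded the highest named class for 6 of the 10 genes in the diet pair and for 1, Junb, in the LNR pair, by mean level. Cluster 38 of the diet pair (75 and 62 cells, led by both mural and endothelial genes such as Rgs5 and Flt1) held Jun at 1447 and 1225, Jund at 1342 and 1286, and Atf3 at 982 and 923. Its cells had median UMI counts of 13479 and 13360, against 7295 and 7269 in mural-like and 8079 and 7073 in blood endothelial-like cells. Whether it holds doublets of these classes was not tested. Cluster 31 (198 and 147 cells, led by smooth muscle genes such as Cnn1 and Acta2) held Egr1 at 1130 and 1290, Ier2 at 507 and 531, and Fosl1 at 51.2 and 110. These clusters were picked out after their values were seen.

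**Figure D2:**
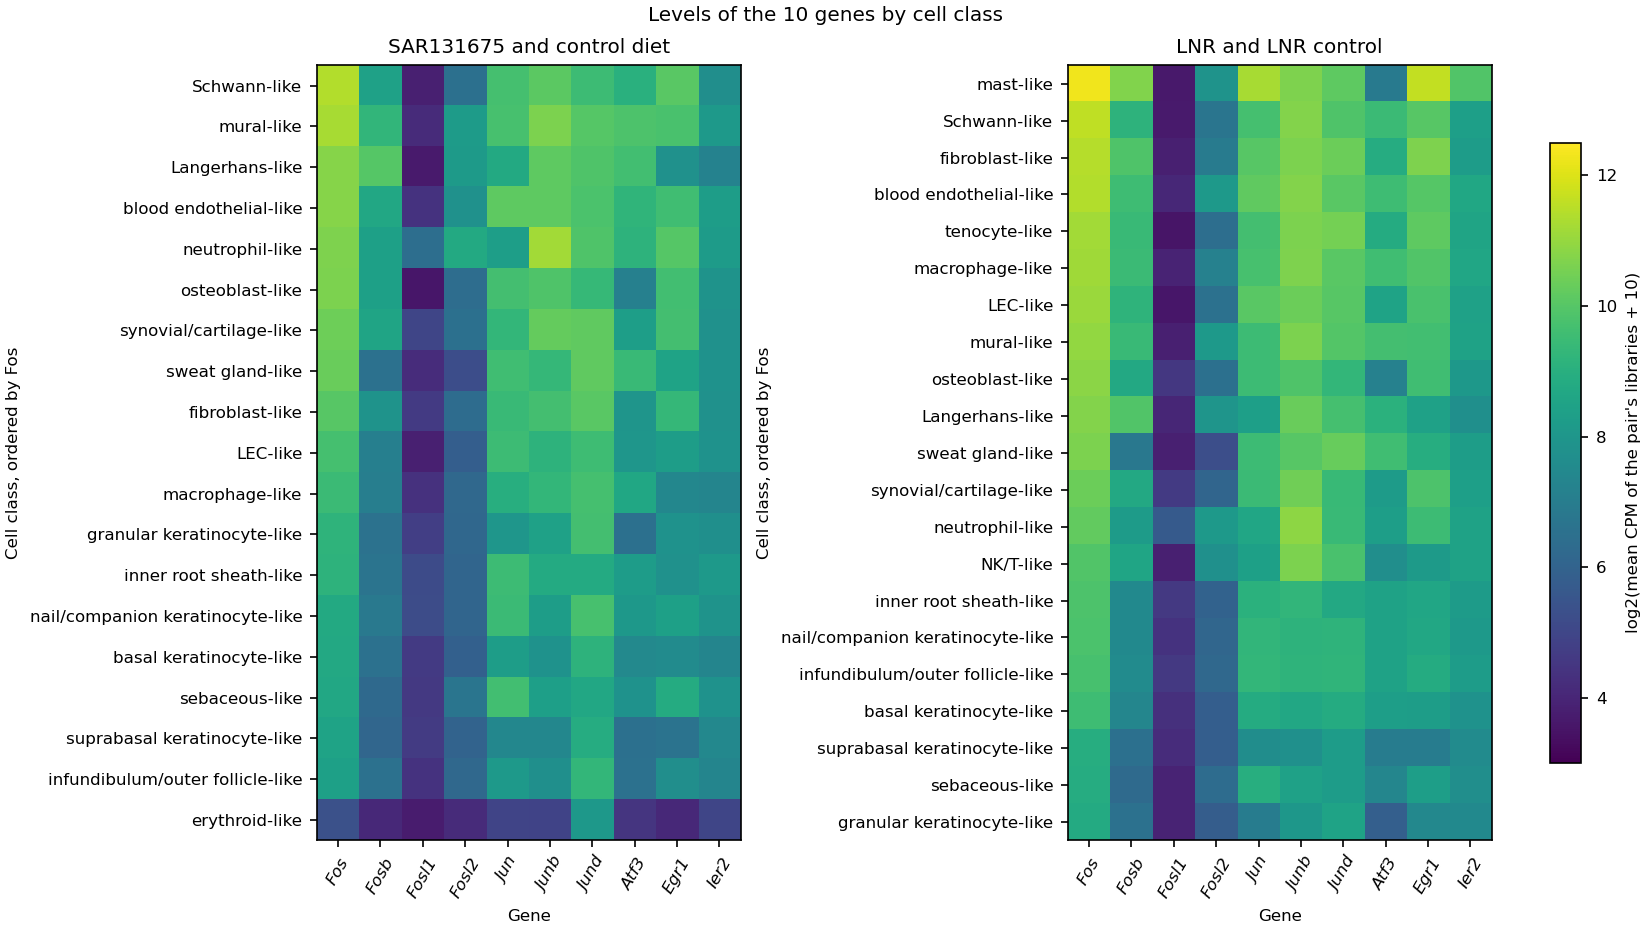
Mean level of the 10 genes in each cell class, as log2 of the mean CPM of the pair's libraries plus 10, for SAR131675 and control diet (left) and LNR and LNR control (right), with classes ordered by Fos. Keratinocyte classes lie toward the bottom, Fosl1 is low except in neutrophil-like cells, and Atf3 is low in mast-like cells (81.1 and 142 CPM).

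Set side by side, several classes had higher levels in the LNR pair than in the diet pair, and others did not. Macrophage-like cells held Fos at 688 and 712 in the diet pair and 2196 and 2266 in the LNR pair, and Egr1 at 177 and 139 against 908 and 1018. Fibroblast-like cells held Fos at 1023 and 1072 against 2839 and 2733. In Langerhans-like cells Fos was 1772 and 1749 against 1721 and 1703, and in mural-like cells 2619 and 2284 against 2143 and 1817. Software version, depth, batch and surgery all differed between the pairs and cannot be told apart here.

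Between the libraries of a pair the 10 genes differed little over all kept cells. None of the 10 was at least 1.5-fold higher or lower in SAR131675 than in control diet, where 2.44% of the 18944 genes with at least 100 UMIs were higher and 2.51% lower. None was so in LNR against LNR control, where 1.5% of 16085 genes were higher and 0.802% lower. The largest difference in the diet pair was Fosl1, with a log2 ratio of SAR131675 over control diet of -0.41 (-0.47 to -0.35). Fosb (-0.23) and Jund (-0.19) were also lower, Ier2 (0.15) and Egr1 (0.14) higher, and Fos (-0.03) and Fosl2 (0.00) level. In LNR against LNR control all 10 ratios were 0 or above: Fosl1 0.23, Junb 0.22, Fos 0.20, Egr1 0.19, Fosb 0.12, Jun and Ier2 0.10 each, Atf3 0.06, Fosl2 0.05 and Jund 0.00. The median log2 ratio of the 10 was -0.04 in the diet pair and 0.11 in the LNR pair, beside -0.01 and 0.02 over all genes with at least 100 UMIs. With each class and cluster given the same share of cells in both libraries, the LNR ratios were 0.10 for Fos, 0.07 for Egr1 and 0.11 for Junb, and those of Fosb (-0.01), Fosl2 (-0.03) and Jund (-0.08) turned below 0, while the median of all genes moved from 0.02 to 0.00. Fosl1 turned to -0.08 after thinning. In the diet pair the same shares gave larger differences for Jun (-0.08 to -0.19), Atf3 (-0.05 to -0.18) and Fos (-0.03 to -0.08), and turned Fosl2 to -0.03, while the median of all genes moved from -0.01 to -0.06.

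Within classes, 3 of 174 gene and class combinations with at least 100 UMIs were at least 1.5-fold higher in SAR131675 (1.72%, beside 2.26% over all genes and classes) and 1 was lower (0.575%, beside 2.5%). Egr1 in Langerhans-like cells was at 272 in SAR131675 and 150 in control diet, a log2 ratio of 0.86 (0.61 to 1.11). The share of these cells with an Egr1 UMI after thinning was 31.9% and 20%, with 95% intervals that overlapped. Jun in neutrophil-like cells was at 398 and 226 (log2 0.82, 0.51 to 1.14). The share of thinned neutrophil-like cells with a Jun UMI was 28.5% in SAR131675 and 25.5% in control diet, with 95% intervals that overlapped. The tenth of these SAR131675 cells with the most Jun UMIs held 64.4% of them. Fosl2 in sweat gland-like cells was at 35.2 and 21.3 on 77 and 31 UMIs, where the median mitochondrial share was 1.15% and 0.449%. Fosl1 in infundibulum and outer follicle keratinocyte-like cells was lower, at 7.09 and 14.9 (log2 -1.07, -1.39 to -0.75). After thinning 0.951% and 1.18% of these cells held a Fosl1 UMI, again with intervals that overlapped. The shares of combinations past 1.5-fold were no larger than the background, and each value rests on 1 library against 1.

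In LNR against LNR control, 5 of 192 combinations were at least 1.5-fold higher (2.60%, beside 1.93%) and 1 lower (0.521%, beside 2.3%). Of the 5, 3 were in sweat gland-like cells: Fos at 2124 in LNR and 1008 in LNR control (log2 1.08, 0.91 to 1.24), Egr1 at 593 and 356, and Fosb at 128 and 73.9 on 80 and 28 UMIs. Atf3 in the same cells went the other way, at 672 and 863. The class held 81 and 67 cells, with a median of 3538 and 1506 UMIs and a median mitochondrial share of 3.52% and 0.369%, and the part of this in the Fos difference was not tested. Inner root sheath-like cells (368 and 786) gave the other 2, Fosl1 at 17.2 and 10.1 and Atf3 at 415 and 273. Fosl2 in synovial and cartilage-like cells was lower, at 43.9 and 73.0 on 44 and 56 UMIs.

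**Figure D3:**
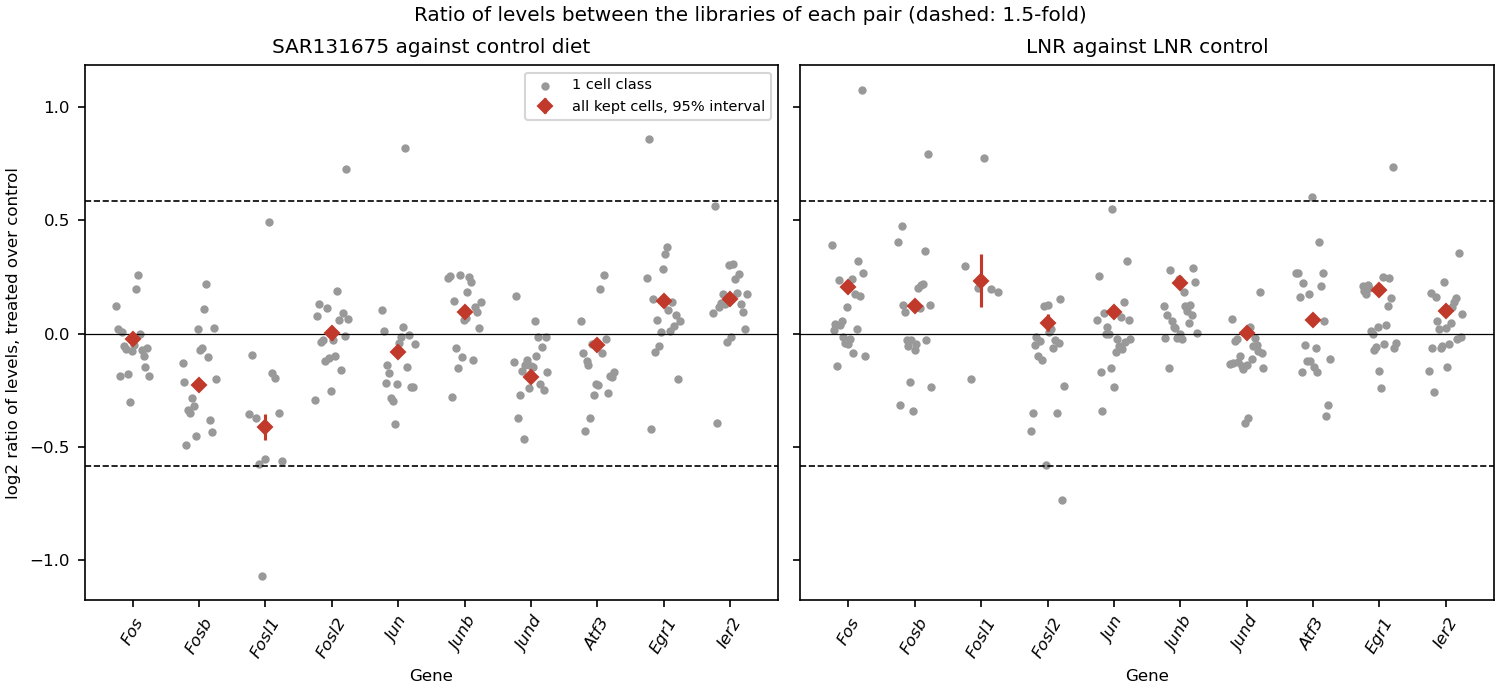
Log2 ratio of levels, SAR131675 over control diet (left) and LNR over LNR control (right), for each of the 10 genes: grey points are cell classes with at least 100 UMIs, red diamonds all kept cells with 95% conditional intervals, dashed lines 1.5-fold. Most points lie between the dashed lines, and Jund lies below 0 in 17 of 19 classes on the left and 18 of 21 on the right.

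Small differences ran in the same direction in many classes. Jund was lower in SAR131675 in 17 of 19 classes, and a share of classes at least as large was lower for 7.44% of the 121 genes measured in at least as many classes. It was lower in LNR in 18 of 21, beside 2.96% of 709 genes. Its median log2 ratio over classes was -0.14 and -0.10. Fosl1 was lower in SAR131675 in 10 of 11 classes, beside 8.31% of 7136 genes, but higher in LNR in 5 of 6 classes, beside 4.15% of 8691 genes. Fosl2 was lower in LNR in 14 of 19 classes, beside 8.87% of 1297 genes. In SAR131675 Atf3 was lower in 15 of 18 classes, Ier2 higher in 15, Fosb and Jun each lower in 14 and Egr1 higher in 14. The corresponding shares of 1807 genes were 17.8%, 22.5%, 24.1% for both, and 27.9%. Fos was lower there in 13 of 18 classes (30.9%), Junb higher in 13 (33.2%) and Fosl2 lower in 10 (47.5%). In LNR Atf3 was lower in 10 of 20 classes and higher in as many (beside 41.4% of genes). Of 21 classes, Fos was higher in 14 (35.1%), Ier2 higher in 12 (53.6%), Fosb higher in 11 (62.6%), Jun lower in 12 (29.8%) and Egr1 higher in 13 (44.3%). Junb was higher in LNR in 17 of 21 classes, beside 13.1% of 709 genes. Classes of a library share its preparation, so they are not replicates of the diet or the surgery.

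Cluster 28 of the LNR pair, which matched no marker list and was led by the genes a, Igfbp3, Crabp1 and Rspo3 (chosen for description after its values were seen), held higher levels in LNR of all 9 members with at least 100 UMIs, beside 54.3% of its 2606 genes with as many. Of the 9, 6 were at least 1.5-fold higher and none lower, beside 4.57% and 1.92% of those genes. Most of these members varied together over classes, with r for Fos of 0.853 to Junb and 0.907 to Egr1 in the LNR pair. The 9 are therefore not separate observations. The background is counted gene by gene, so it cannot show how unusual such a set is. Fos was at 4537 in LNR and 3101 in LNR control (log2 0.55, 0.48 to 0.62), Fosb at 829 and 419, Egr1 at 2563 and 1456, Junb at 3724 and 2387, and Jun at 1126 and 734. Its 195 and 155 cells had median UMIs of 2759 and 2047, with mitochondrial shares of 2.50% and 2.54%. After thinning to equal depth, 82.5% of its LNR cells and 75.4% of its LNR control cells held a Fos UMI. For Egr1 these shares were 76.9% and 69.5%, for Junb 90.6% and 84.75%, and for Fosl2 15.6% and 16.1%. The 95% intervals of the 2 libraries overlapped for every member. The cluster is not among the counts above, and without a second library per group the difference has no replicate check.

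Within basal keratinocyte-like cells, a class named from keratins and adhesion genes that epidermal and follicle basal cells share, the levels were uneven. In the diet pair, cluster 4 (leading genes Grem1, Shisa2, Lhx2 and Cxcl14) held Fos at 1722 in SAR131675 and 1613 in control diet, while cluster 0 held 237 and 281. Cluster 4 made up 20.9% and 18.9% of the class and held 58.9% and 47.8% of its Fos UMIs. Of the clusters led by cell division genes, cluster 7 held 110 and 145, cluster 12 held 109 and 142, and cluster 29 held 317 and 383. Egr1 was at 809 and 646 in cluster 4 against 96.0 and 111 in cluster 0. The LNR pair had a like cluster, cluster 2 (Lhx2, Shisa2, Lgr5, Krt15, among them genes known from the hair follicle bulge and germ), with Fos at 2157 and 2111 against 574 and 411 in cluster 1 and 354 and 346 in the dividing cluster 3. It made up 33.0% and 30.3% of the class and 54.0% and 54.8% of its Fos UMIs. Median mitochondrial shares of clusters 4 and 0 were 1.88% and 2.11% in SAR131675, and median UMIs 7415 and 12134. The 10 genes were left out of the clustering, and the clusters were set side by side with no test.

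**Figure D4:**
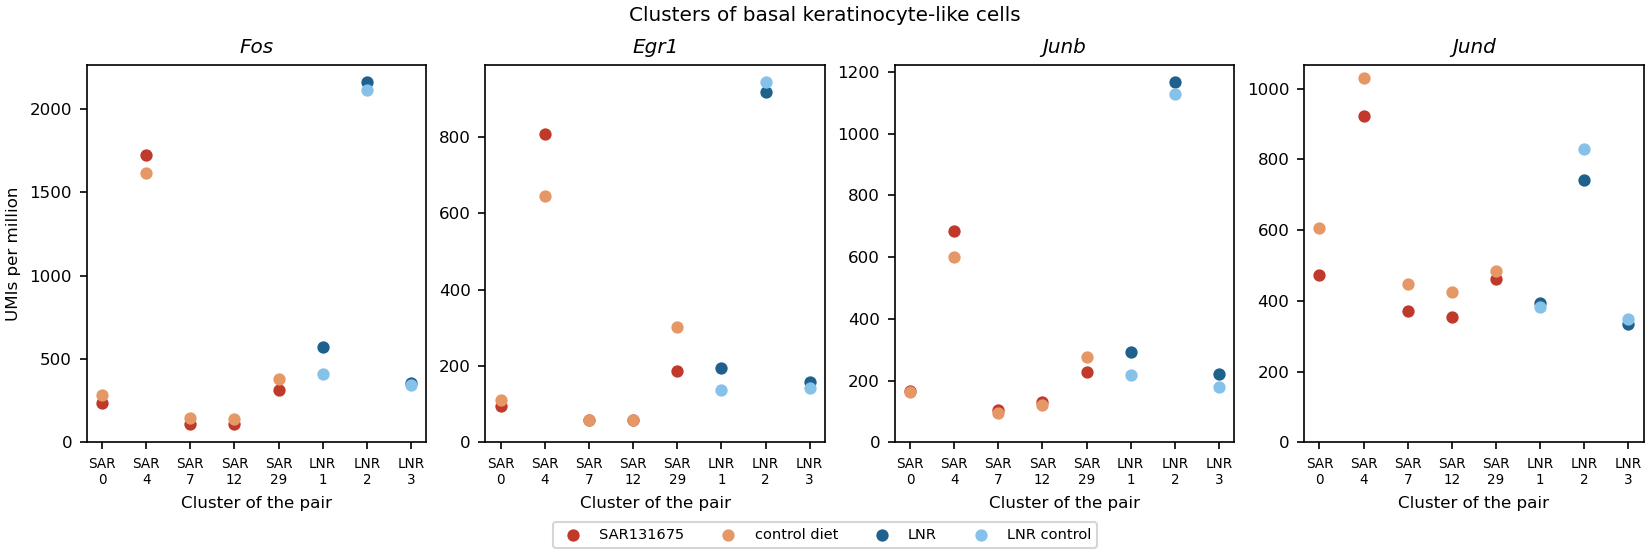
Levels of Fos, Egr1, Junb and Jund (CPM) in the clusters of basal keratinocyte-like cells, by library. Cluster 4 of the diet pair (SAR) and cluster 2 of the LNR pair stand above the other clusters for each gene, for Fos at 1722, 1613, 2157 and 2111.

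Cells that held a Fos UMI also held the other genes more often. At 1500 UMIs per cell, Egr1 was detected in 48.7% of Fos-positive and 12.2% of Fos-negative cells of SAR131675, in 45.8% and 11.3% of control diet, in 65.0% and 14.3% of LNR, and in 63.0% and 14.7% of LNR control. Inside classes the difference for Egr1, Junb, Fosb, Atf3 and Ier2 had the same sign in all 17, 14, 16 and 16 classes of the 4 libraries with enough cells. For Jun the exception was neutrophil-like cells of SAR131675, with 27.6% of Fos-positive and 30.8% of Fos-negative cells, and Jund had the same sign in 16 of 17, 13 of 14, 15 of 16 and 16 of 16 classes. For Egr1 its median over classes was 26.1, 28.6, 41.0 and 36.5 percentage points, and for Jund 12.6, 15.2, 17.2 and 17.4. For Fosl2 it was 4.02, 3.57, 3.27 and 2.85 points, with the same sign in 14 of 17, 11 of 14, 12 of 16 and 14 of 16 classes. Fosl1, which few cells held at all, differed by 2.01 and 1.29 points in the diet libraries (15 of 17 and 13 of 14 classes) and by 0.418 and 0.221 in the LNR libraries (9 of 16 in each). In neutrophil-like cells of SAR131675 Egr1 was as frequent in Fos-positive as in Fos-negative cells, 60.6% of 127 and 59.6% of 52.

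The Fos UMIs of basal keratinocyte-like cells sat in few cells. The tenth of these cells with the most Fos UMIs held 83.9%, 81.2%, 63.6% and 67.7% of them in the 4 thinned libraries. In fibroblast-like cells it held 49.7%, 47.9%, 31.7% and 30.7%. This contrast also depends on how many cells held a Fos UMI at all. In thinned SAR131675, 1499 basal keratinocyte-like cells held one and 6012 did not, against 1656 and 1806 fibroblast-like cells. Of the 10 genes, a thinned cell held 2.40 ± 2.15 in SAR131675, 2.43 ± 2.13 in control diet, 3.60 ± 2.57 in LNR and 3.47 ± 2.54 in LNR control (mean ± SD over cells). None was detected in 18.4%, 17.7%, 13.2% and 14.1% of cells. Mast-like cells held 6.05 and 5.96 on average, suprabasal keratinocyte-like cells 1.49, 1.57, 1.60 and 1.60, and erythroid-like cells of SAR131675 0.442.

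The summed level of the 10 genes moved with the mitochondrial share of a cell. Each class of at least 300 cells was split into tertiles by that share, and levels were taken as CPM outside the mitochondrial genes. The highest tertile lay below the lowest in 12 of 12 named classes of SAR131675, 10 of 10 of control diet, 12 of 14 of LNR and 12 of 13 of LNR control, with a median ratio of 0.610, 0.648, 0.663 and 0.678. In basal keratinocyte-like cells the sum went from 3605 to 1219 in SAR131675, a ratio of 0.338, and the other libraries gave 0.311, 0.279 and 0.301. Fibroblast-like cells had ratios of 0.752, 0.773, 0.871 and 0.844. Tertiles by total UMIs gave medians of 0.955, 1.04, 0.815 and 0.869, with the highest tertile below the lowest in 7 of 12, 4 of 10, 10 of 14 and 9 of 13 classes. In basal keratinocyte-like cells these ratios were 0.429, 0.486, 0.458 and 0.382. Barcodes removed for over 10% mitochondrial UMIs had a sum of 1427 in SAR131675 and 1238 in control diet, against 3069 and 3144 in kept cells. In LNR and LNR control the removed barcodes held 4677 and 4682, against 5210 and 4729. Among single members, Fosl2 did not follow the mitochondrial tertiles in the LNR pair. Its median ratio of highest to lowest was 1.03 in LNR (7 classes above 1 and 5 below) and 1.01 in LNR control (6 and 6). Whether the subtypes within a class account for the split was not tested.

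**Figure D5:**
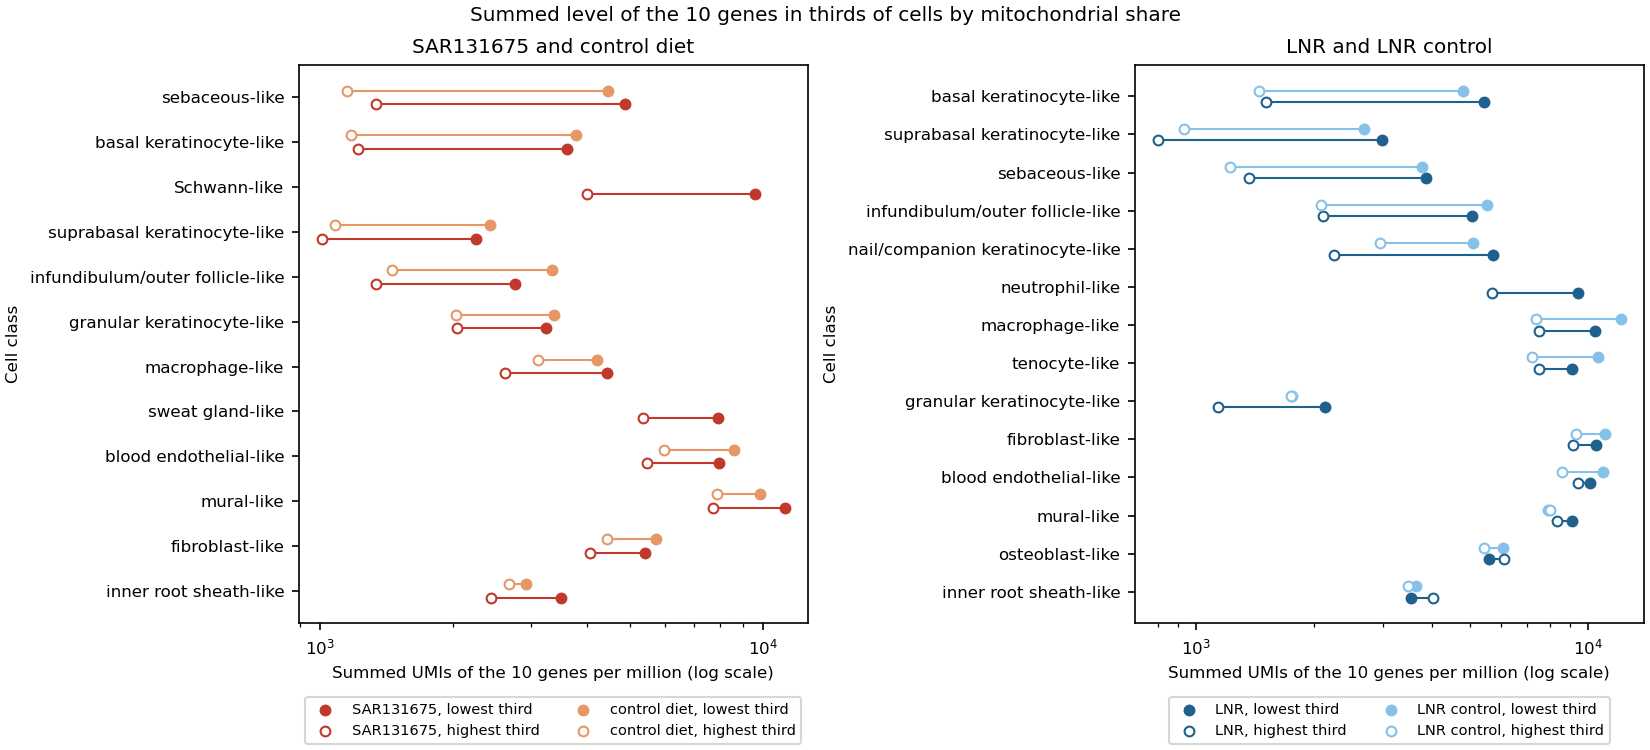
Summed level of the 10 genes (CPM outside mitochondrial genes, log scale) in the tertiles of cells with the lowest (filled) and highest (open) mitochondrial share, for each cell class of at least 300 cells and each library. The open point lies left of the filled one in 12 of 12 classes of SAR131675, 10 of 10 of control diet, 12 of 14 of LNR and 12 of 13 of LNR control.

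The 10 genes were compared in their log2 levels over class and library points, 38 in the diet pair and 42 in the LNR pair. Fos and Junb had a Pearson r of 0.945 in the diet pair and 0.853 in the LNR pair, Fos and Egr1 of 0.863 and 0.907, and Fos and Fosb of 0.872 and 0.900. Fosl1 stood apart, with r to the other members from -0.01 to 0.34 in the diet pair and from -0.42 to -0.02 in the LNR pair. The diet pair includes 2 erythroid-like points, low for most members. The next values leave them out, a choice made after seeing the data. Over 36 points r was 0.922 for Fos and Junb, 0.745 for Fos and Egr1 and 0.861 for Fos and Fosb. It was 0.37 for Fos and Ier2, 0.18 for Fosb and Ier2 and 0.06 for Fosl2 and Jun. Fosl1 ran from -0.31 to 0.28, so it did not stand apart from all other pairs of members over these points. The points share libraries and their depth, so these values are descriptions without a test. Over all 80 points, which pool the pairs and include the erythroid-like points, the other genes most like each member were then sought among 14514 genes, leaving out the 10 themselves. By this search those most like Fos included Sertad1 (r = 0.88) and Zfp36 (0.87). Junb was most like Zfp36 (0.92), Nfkbia (0.90) and Sertad1 (0.89), Egr1 most like Sertad1 (0.87), and Fosb most like Sertad1 (0.85). Among the same other genes, Jun was nearest to Brd2 (0.87), Fosl2 to Csrnp1 (0.86), Atf3 to Btg2 (0.80), Ier2 to Srsf5 (0.80) and Fosl1 to Gpr35 (0.73). Over the 78 points without erythroid-like cells, Sertad1 stayed nearest to Fos (0.86) and Egr1 (0.84), Zfp36 to Junb (0.90), Brd2 to Jun (0.77), Btg2 to Atf3 (0.75) and Gpr35 to Fosl1 (0.73). Csrnp1 was then nearest to Fosb (0.83), Nr4a3 to Fosl2 (0.86) and Sertad1 to Ier2 (0.74), where Srsf5 fell to rank 44 (0.57).

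The other genes of the pathway were read from fixed lists over all kept cells. Of all genes with at least 100 UMIs, 8985 were higher and 9959 lower in SAR131675, and 9254 higher and 6831 lower in LNR. Of 27 other immediate early genes none was 1.5-fold higher or lower in either pair. 16 were higher and 11 lower in SAR131675 (median log2 0.02), and 25 higher and 2 lower in LNR (median 0.13). Klf4, a factor of epidermal differentiation, was at 612 in SAR131675 and 792 in control diet, and at 793 and 790 in the LNR pair. Dusp1, a phosphatase that switches off the MAP kinases, was at 292 and 289, and at 418 and 354. The summed levels of this list and of the 10 genes followed each other over classes, with r = 0.956 on log2 sums in the diet pair (38 points) and 0.917 in the LNR pair (42 points). For 13 heat shock genes, known for the response to misfolded protein, r was 0.679 and -0.149. The first value rested on the erythroid-like points: without them, a choice made after seeing the data, it was 0.108 over 36 points, while that of the immediate early list was 0.904.

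Other leucine zipper partners and the kinases and factors upstream also stayed within 1.5-fold. Of 14 partners 8 were higher and 6 lower in SAR131675 (median 0.05), and all 13 with enough UMIs were higher in LNR (median 0.14). Cebpb, a partner active in inflammation and keratinocytes, was at 330 and 259 in the diet pair and 363 and 327 in the LNR pair. Of 13 upstream genes 3 were higher and 10 lower in SAR131675 (median -0.10), and 9 higher and 4 lower in LNR (median 0.02). Of the 13 heat shock genes 9 were higher in SAR131675 (median 0.06) and 11 in LNR (median 0.10).

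Of 18 wound and AP-1 target genes 16 had at least 100 UMIs. In SAR131675 2 were at least 1.5-fold higher and none lower, with a median log2 ratio of 0.01, beside 2.44% higher of all genes with at least 100 UMIs. In LNR 4 were higher and none lower, with a median of 0.34, beside 1.5% higher of all genes. Krt16, a keratin of wounded and nail epidermis, was the gene past this size in both pairs, at 71.2 in SAR131675 and 43.5 in control diet, and at 59.2 in LNR and 35.9 in LNR control. Nail and companion keratinocyte-like cells, a class with Krt16 among its leading genes, made up 0.973% and 0.628% of kept cells in the diet pair and 2.33% and 2.53% in the LNR pair, and the part of this in the difference was not tested. Krt6a, its partner keratin, was at 202 and 140, and at 149 and 129. The others past the threshold, named after their values were seen, were Mmp9 (1.69 and 1.06) in the diet pair and the matrix proteases Mmp13 (83.9 and 32.5) and Mmp3 (59.7 and 29.7) and the keratin Krt6b (11.8 and 5.30) in the LNR pair. In the diet pair Mmp13 was at 6.46 and 8.34 and Mmp3 at 14.4 and 10.8.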

How the data were processed

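Single-cell 3′ RNA-Seq of dissociated digits, labelled P3 and severed at the base of P2, was analysed in 4 libraries. For each library the authors deposited a matrix of unnormalized UMI counts, which Cell Ranger had produced against GRCm39. The file headers name version 8.0.1 for SAR131675 and control diet and 6.1.2 for the LNR pair, while the submitters' processing notes list 6.1.2. The members and lists were chosen with earlier results of these data known. Thresholds for naming clusters were set after looking at cluster scores and leading genes, before levels of the 10 genes were viewed.

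Kept barcodes were clustered within each pair (igraph, 30 principal components, 20 neighbours, Leiden resolution 0.7) without the members and listed genes other than markers. A cluster took a name only with at least 3 detected markers. The NK/T-like cluster also held B lineage genes among its leading genes. Called doublets (4.55%, 1.01%, 6.01% and 8.12% of kept cells in SAR131675, control diet, LNR and LNR control, where the number of cells predicts about 23.3%, 19.2%, 15.9% and 16.5%) were left in. Their removal as an alternative is a partial check, since most predicted doublets were not called. UMIs were summed per class and library. A gene was counted as higher or lower at 1.5-fold with at least 100 UMIs over the pair. All members were named, and of each list the 3 genes with the most UMIs or those past 1.5-fold in both pairs were eligible. Intervals were computed with scipy 1.17.1 at 95%. The gene most like Jund is not reported here. The 1.5-fold call and the ratio interval over all kept cells were tested on simulated Poisson counts, which hold counting error only.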

Additional observations from a re-analysis of the deposited data

How the results depend on the processing

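Over all kept cells the count of the 10 genes at least 1.5-fold higher or lower stayed at 0 in both pairs under every alternative run. Of 88 alternative values of the counts, 70 kept within 1.5 times of the count given above and 18 did not. Of the other alternative values run, 75 were classed as the same and 65 as moved. In the diet pair the 3 higher combinations became 6 with called doublets removed. The 1 lower combination became 5 without upper limits on genes and UMIs, 2 after thinning to 1500 UMIs, 3 with at least 20 UMIs, 4 at Leiden resolution 0.4, 4 at 1.2 and 6 with classes set per cell by markers. In the LNR pair the 5 higher combinations became 3 without upper limits, 3 at no more than 5% mitochondrial UMIs, 2 after thinning, 8 with at least 20 UMIs, and 3 at resolution 0.4, at 1.2 and with classes set per cell. The 1 lower combination became 2 with called doublets removed, 2 when centred on the median gene, 3 with at least 20 UMIs and 4 with classes set per cell. The cause was not tested, except that a minimum of 20 UMIs admits sparser genes. The log2 ratio of Fosl2 in the diet pair changed sign in 4 of 7 settings, between -0.03 and 0.06, and that of Jund in the LNR pair in 6 of 7, between -0.08 and 0.02. Fosl1 in the LNR pair ran from -0.08 after thinning to 0.27. With an equal class mix Fosb in the LNR pair was at -0.01 and Fosl2 at -0.03. Depth limited Fosl1 most, which reached 100 UMIs in 11 of 19 classes of the diet pair and 6 of 21 of the LNR pair. No paired analysis was possible because each group had 1 library.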
